A study of Homo sapiens with 12 samples.

Results

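The 44 genes described here act in the interferon response and in the sensing of foreign nucleic acid, and were taken from the count table by their symbols. All 44 had a row among the 19901 protein-coding genes of the table, and 38 of them reached 10 counts in 6 or more of the 12 libraries and were tested. They are grouped here by role. The sensors and their adaptor are DDX58 (listed as RIGI in current annotation), IFIH1, DHX58, TLR3, CGAS and MAVS. ADAR and EIF2AK2 edit or bind double-stranded RNA. The receptors and kinases are IFNAR1, IFNAR2, IFNGR1, IFNGR2, JAK1 and TYK2, and the transcription factors are STAT2, IRF1, IRF2, IRF3, IRF7 and IRF9. The antiviral effectors are IFI6, IFI27, IFI35, IFI44, IFI44L, IFIT1, IFIT2, IFIT3, IFIT5, ISG20, MX1, OAS1, OAS2, OAS3, OASL, SAMD9 and BST2. ISG15, USP18, TRIM21, TRIM25, PARP9, PARP14 and DTX3L form the group of ISG15 with ubiquitin and ADP-ribose enzymes.

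RNA-Seq was done on HCT116 cells, an established human colorectal carcinoma line, from 1 clone (D5) in which the endogenous KAP1 protein carries a dTAG degron. The dTAG ligand recruits the tagged protein to a ubiquitin ligase for degradation. All cells, controls included, carried the tag, were starved of serum over 48 h and received dTAG or its vehicle DMSO for 8 h. Cells given DMSO were collected starved (DMSO-S0) or after 30 min of serum (DMSO-S30), and so were cells given dTAG (dTAG-S0 and dTAG-S30), with 3 biological replicates in each of the 4 groups. The comparisons ask how these genes respond to serum, and whether their level or response differs after dTAG treatment.

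Cells detect foreign or misplaced nucleic acid with dedicated proteins. DDX58 and IFIH1 bind double-stranded RNA in the cytoplasm and signal through MAVS on mitochondria, TLR3 does so in endosomes, and CGAS binds DNA. The signal activates IRF3 and IRF7, which switch on interferon genes. Secreted interferon then binds its receptors, JAK1 and TYK2 phosphorylate STAT proteins, and STAT2 with IRF9 drives the interferon-stimulated genes through a promoter element called the ISRE. KAP1 is best known as a corepressor of endogenous retroviruses, whose transcripts can form double-stranded RNA.

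The libraries held 20537682 to 26278707 counts, of which ERCC spike-in RNA took 7.97% to 9.37%. The 38 genes tested took 0.187% to 0.202% of the gene counts in each library. Their mean counts per library ran from 18 for IFI44 to 8024 for ADAR, and 7 genes (IFI44, IFI35, MX1, IRF7, DHX58, TLR3 and BST2) had under 50 counts, so that modest changes of these genes were not detectable. Of the 6 epithelial markers checked, EPCAM, KRT8, KRT18, KRT19 and CDH1 had 1606 to 13216 counts in every library and VIL1 had 1 to 7. Of the blood and immune markers, CD3E had 0 to 7 counts per library, CD14 had 0 to 4, LYZ had 3 to 8 and PTPRC had 8 to 35. Of the fibroblast markers COL1A2 had 0 or 1 count, while COL1A1 had 250 to 1789 and rose with serum (log2 2.48 in DMSO and 2.47 in dTAG); its part in the results below was not tested. The transcript of TRIM28, which encodes KAP1, differed between dTAG and DMSO by a log2 of -0.06 without serum and -0.04 with serum (adjusted p = 0.789 and 0.888). The degron acts on the protein, so this value does not measure KAP1 loss.

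Most of the pathway was transcribed in these cells, at levels per unit of length that ran from 0.0235 to 10.05. CPM is a count relative to the scaled size of its library. Levels are given between genes as CPM per kb of the counted span, introns included. They are means over the 12 libraries, with and without serum. MAVS, the adaptor of the cytoplasmic RNA sensors, had the highest level at 10.05 CPM per kb, followed by ADAR, which edits adenosine to inosine in double-stranded RNA, at 8.07. IFIT5 led the antiviral effectors at 7.44 CPM per kb and TRIM25, a ubiquitin ligase for the sensor DDX58, its group at 6.61. IRF3, the factor held ready in unstimulated cells, was at 5.73 CPM per kb, and IRF7, which is made mainly after interferon, at 0.553. The receptors and kinases lay close together, from 0.824 for IFNGR2 to 1.83 for IFNGR1. The sensors other than MAVS ran from 0.0703 for TLR3 to 0.869 for DDX58, and MX1, a classical interferon-induced GTPase, was lowest of all 38 at 0.0235 CPM per kb.

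**Figure D1:**
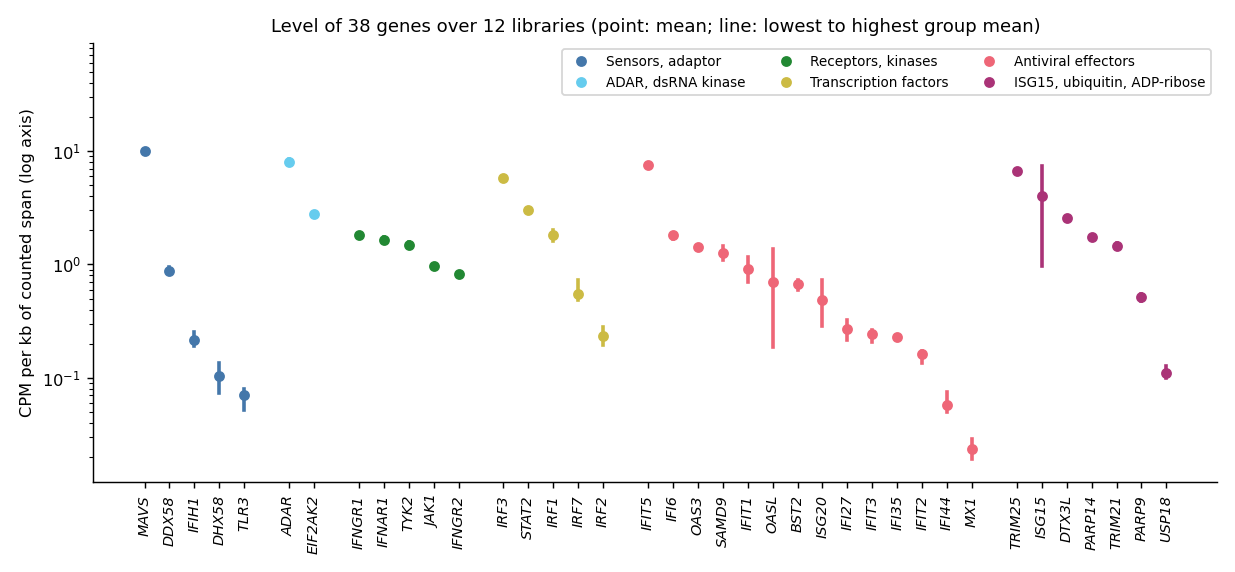
Mean level of the 38 tested genes over 12 libraries in CPM per kb of counted span, on a log axis and coloured by role. Lines join the lowest and highest of the 4 group means, and only ISG15, OASL and ISG20 have lines of more than a 2-fold range.

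Interferon genes themselves gave few or no counts. Of 10 ligand genes (IFNA1, IFNA2, IFNB1, IFNE, IFNK, IFNW1, IFNG, IFNL1, IFNL2 and IFNL3), 8 had 0 counts in all 12 libraries, which allows up to 3 counts or 0.126 to 0.161 CPM per library. IFNL3 had 0 or 1 count. IFNE, an epithelial type I interferon, had 12 to 38 counts and was the ligand gene tested, with log2 differences of -0.23 and -0.63 with serum and 0.29 and -0.12 with dTAG (adjusted p = 0.132 to 0.945).

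Serum for 30 min changed few of these genes, and those that rose did so strongly. In DMSO-treated cells 3 of 38 genes were called higher (7.89%, against 9.15% of all 13093 genes tested) and 2 lower (5.26%, against 17.0%). In dTAG-treated cells 3 were called higher (9.04% of all genes) and 2 lower (15.3% of all genes). ISG15, OASL and ISG20 were higher in both treatments and IRF2 was lower in both. PARP14 was called lower in DMSO and DDX58 in dTAG. The median log2 change of the 38 genes was -0.04 in DMSO and -0.03 in dTAG, beside -0.07 and -0.06 for all genes. The direction of small serum changes depended on the scaling. Under TMM scaling 4 genes were called in each treatment and each was higher, IFNGR1 joining ISG15, OASL and ISG20 in DMSO and ADAR joining them in dTAG. Of all genes TMM called 12.9% higher and 8.09% lower in DMSO, and 12.1% higher and 7.47% lower in dTAG.

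ISG15 encodes a ubiquitin-like protein that is joined to other proteins in interferon-treated cells. Its level was 13.6, 11.7 and 13.5 CPM in DMSO-S0 and 87.3, 93.3 and 115 CPM in DMSO-S30. In dTAG-S0 it was 16.1, 15.7 and 15.0 CPM, and in dTAG-S30 84.2, 81.7 and 95.3 CPM. Every library with serum was more than 5 times above every library without it. The rise was 7.86-fold in DMSO (log2 2.97 ± 0.10 SE, adjusted p = 3.11e-19) and 5.46-fold in dTAG (log2 2.45 ± 0.09 SE, adjusted p = 9.18e-18). The gene is counted on chromosome 1 from 1001138 to 1014541 on the plus strand of hg38, a span that starts 965 bases from HES4, a transcriptional repressor gene on the other strand. HES4 also rose with serum, from 4.97 ± 0.355 to 14.9 ± 2.57 CPM in DMSO (SD, n = 3) and from 5.56 ± 0.664 to 14.5 ± 1.95 CPM in dTAG, with log2 changes of 1.62 and 1.34 (adjusted p = 6.83e-10 and 1.17e-08). The RefSeq start of ISG15 at 1013497 lies inside the counted span, and which part of the span the counts come from was not tested.

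OASL encodes an interferon-induced protein related to the oligoadenylate synthetases that helps DDX58 signal. Its level was 4.19, 3.85 and 3.19 CPM in DMSO-S0 and 29.6, 23.9 and 29.0 CPM in DMSO-S30. In dTAG-S0 it was 4.33, 3.38 and 4.75 CPM, and in dTAG-S30 20.5, 16.9 and 24.2 CPM. Here too the libraries with serum lay wholly above those without. The rise was 7.41-fold in DMSO (log2 2.89 ± 0.15 SE, adjusted p = 1.98e-14) and 4.91-fold in dTAG (log2 2.30 ± 0.15 SE, adjusted p = 1.41e-12). OASL is counted on chromosome 12 from 121019111 to 121039242 on the minus strand, with no other gene of the table overlapping it. OAS3, an oligoadenylate synthetase that activates RNase L, differed by a log2 of 0.01 and 0.08 with serum (adjusted p = 0.936 and 0.458), and OAS1 and OAS2 had too few counts to be tested.

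ISG20 encodes an antiviral 3′ to 5′ exonuclease that degrades single-stranded RNA. Its level was 5.30, 5.596 and 6.52 CPM in DMSO-S0 and 13.0, 11.3 and 13.5 CPM in DMSO-S30. In dTAG-S0 it was 7.15, 6.23 and 5.00 CPM, and in dTAG-S30 15.2, 13.8 and 15.5 CPM. The groups with and without serum did not overlap in either treatment. The rise was 2.09-fold in DMSO (log2 1.07 ± 0.13 SE, adjusted p = 3.93e-07) and 2.49-fold in dTAG (log2 1.32 ± 0.12 SE, adjusted p = 3.20e-09). The calls of ISG15, OASL and ISG20 in both treatments held in all 10 alternative fits and in all 12 fits that left out 1 library.

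The promoters of ISG15 and ISG20 are shown because these genes rose with serum at 30 min. Each run is the 250 bases before the RefSeq start (GRCh38.p14, plus strand), chr1:1013247-1013496 for ISG15 and chr15:88638766-88639015 for ISG20. Capitals mark matches to the ISRE (GAAANNGAAA on either strand), to the AP-1 site (TGANTCA), which is bound by products of immediate early genes, and to the CArG box, the site of serum response factor. The table of promoters used here has no entry for OASL.
ISG15: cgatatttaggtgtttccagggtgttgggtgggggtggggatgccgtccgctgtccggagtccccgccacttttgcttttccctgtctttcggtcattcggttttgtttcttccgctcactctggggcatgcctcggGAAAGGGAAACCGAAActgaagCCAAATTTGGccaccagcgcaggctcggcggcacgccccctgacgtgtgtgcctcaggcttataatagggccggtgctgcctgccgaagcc
ISG20: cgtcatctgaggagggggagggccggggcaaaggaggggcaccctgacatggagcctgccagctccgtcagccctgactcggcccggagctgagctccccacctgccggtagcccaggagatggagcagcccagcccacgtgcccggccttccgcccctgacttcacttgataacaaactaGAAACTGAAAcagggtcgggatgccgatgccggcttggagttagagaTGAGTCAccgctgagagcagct
The ISG15 window holds 2 overlapping ISRE matches, which begin 113 and 107 bases before the start, and a CArG match at 91 bases. The ISG20 window holds 1 ISRE match at 69 bases and 1 AP-1 match at 22 bases before the start. ISG20 is counted from 88636153, so that its RefSeq start at 88639016 also lies inside the counted span. Which part of that span the counts come from was not tested.

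The falls that were called with serum were small. IRF2, which competes with IRF1 for the same promoter elements, was at 19.9, 20.5 and 21.7 CPM in DMSO-S0 and 16.0, 15.9 and 18.9 CPM in DMSO-S30. In dTAG-S0 it was at 24.03, 22.2 and 26.4 CPM and in dTAG-S30 at 20.4, 18.8 and 19.9 CPM. All libraries with serum lay below those without in each treatment, with log2 changes of -0.30 ± 0.09 SE (adjusted p = 0.0190) and -0.29 ± 0.09 SE (adjusted p = 0.0181). The call was lost under TMM scaling and with library sizes from the ERCC total in both treatments. It was also lost in DMSO with DESeq2 (adjusted p = 0.0755) and without DMSO-S0 replicate 3, DMSO-S30 replicate 1 or DMSO-S30 replicate 2 (adjusted p = 0.0535 to 0.0949) and in dTAG without dTAG-S0 replicate 3 or dTAG-S30 replicate 2 (adjusted p = 0.0660 and 0.0747).

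PARP14, a mono-ADP-ribosyltransferase of the antiviral response, was at 89.5, 91.4 and 93.7 CPM in DMSO-S0 and 81.6, 84.6 and 80.9 CPM in DMSO-S30. In dTAG-S0 it was at 89.99, 90.8 and 94.4 CPM and in dTAG-S30 at 82.1, 85.1 and 81.4 CPM. The log2 change with serum was -0.16 ± 0.06 SE in DMSO (adjusted p = 0.0449) and -0.14 ± 0.06 SE in dTAG (adjusted p = 0.0591), so that a call in DMSO alone does not show a difference between the treatments. The interaction was 0.01 (95% interval -0.16 to 0.18, adjusted p = 0.9998). The call in DMSO was lost under TMM scaling, with ERCC library sizes, with DESeq2, without a count filter and with a filter of 50 counts (adjusted p = 0.0681 to 0.528), and also without any 1 of DMSO-S0 replicates 2 and 3, DMSO-S30 replicates 1, 2 and 3 and dTAG-S0 replicate 1 (adjusted p = 0.0522 to 0.190). In dTAG 2 of the 10 alternatives called the gene lower (adjusted p down to 0.0382). These had no factor of unwanted variation from the spike-in RNA, or only the 2 groups compared. It was also called in dTAG without DMSO-S0 replicate 2, DMSO-S0 replicate 3 or DMSO-S30 replicate 1 (adjusted p = 0.0306 to 0.0370).

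DDX58, the sensor RIG-I, was at 63.6, 70.5 and 67.2 CPM in dTAG-S0 and 61.7, 58.7 and 57.3 CPM in dTAG-S30, without overlap. In DMSO-S0 it was at 59.5, 61.0 and 60.8 CPM and in DMSO-S30 at 57.1, 57.3 and 61.5 CPM, which overlapped. The log2 change with serum was -0.18 ± 0.06 SE in dTAG (adjusted p = 0.0374) and -0.05 ± 0.06 SE in DMSO (adjusted p = 0.626), and the interaction was -0.13 (95% interval -0.32 to 0.06). The call in dTAG was lost under TMM scaling, with ERCC library sizes, with DESeq2 and without a count filter (adjusted p = 0.0725 to 0.340), and without dTAG-S0 replicate 2 or 3 or dTAG-S30 replicate 2 or 3 (adjusted p = 0.0527 to 0.153).

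**Figure D2:**
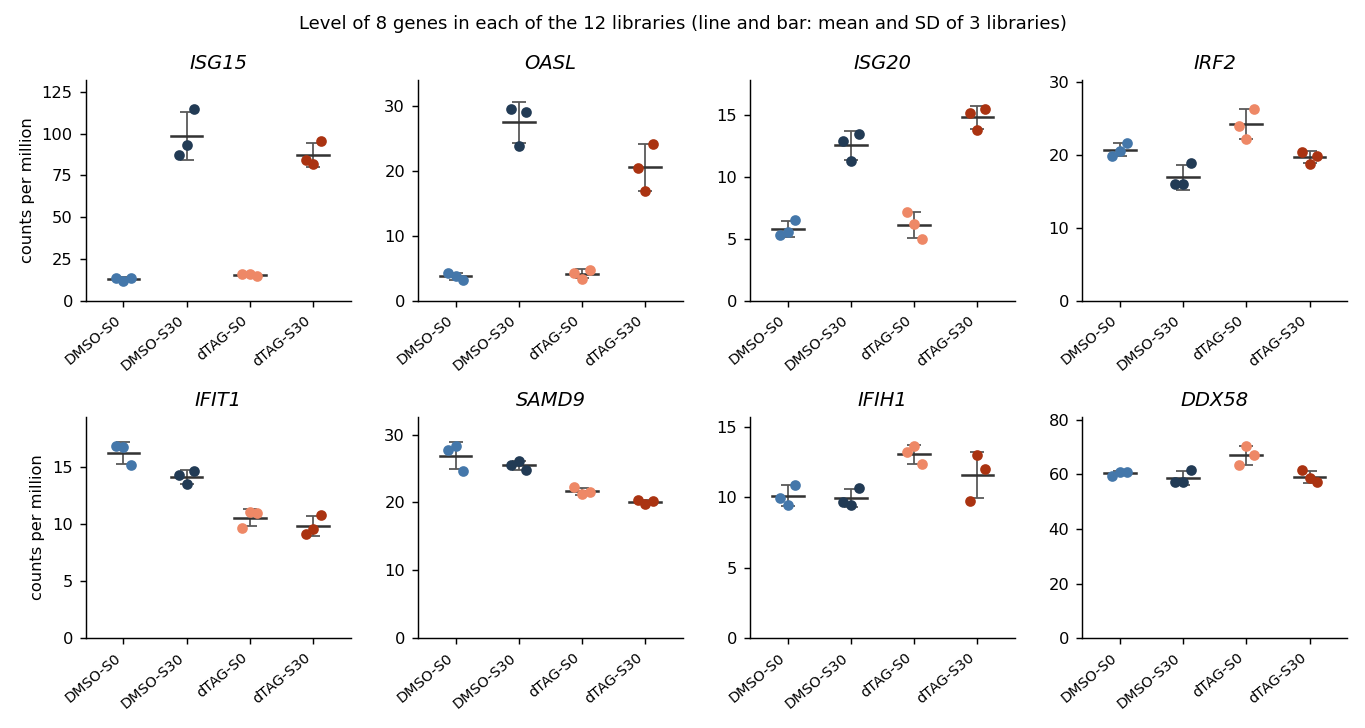
Level in CPM of 8 genes in each library of the 4 groups, as points, with the mean and SD of 3 libraries; each axis starts at 0. ISG15, OASL and ISG20 separate the libraries by serum, IFIT1 and SAMD9 separate them by dTAG, and IRF2, IFIH1 and DDX58 differ by smaller amounts.

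For 26 of 38 genes the 95% interval of the serum effect lay within a 1.5-fold change in DMSO, and likewise for 26 in dTAG. In DMSO the 12 others included the 3 genes that rose and 6 genes with under 50 counts on average. All 5 receptors and kinases tested, and both ADAR and EIF2AK2, had intervals within 1.5-fold in both treatments. DHX58, a regulator of the RNA sensors, had the largest negative value in DMSO, a log2 of -0.93 ± 0.35 SE with an adjusted p of 0.0511, and -0.55 in dTAG (adjusted p = 0.254). Its level in DMSO-S0 was 1.22, 2.29 and 1.08 CPM. Over the 12 fits without 1 library its log2 in DMSO ran from -1.49 to -0.41, with adjusted p up to 0.469. In DMSO it was called lower by the likelihood ratio test of edgeR, without a count filter and with only the 2 groups compared, and also without DMSO-S0 replicate 3, DMSO-S30 replicate 2, dTAG-S0 replicate 2 or dTAG-S30 replicate 1 (adjusted p = 0.00862 to 0.0471). TLR3 had a log2 of -0.76 in DMSO (adjusted p = 0.0664) and was called lower by the likelihood ratio test. It was at 0.848, 2.29 and 1.23 CPM in DMSO-S0, and the fits without 1 library gave -0.94 to -0.20 (adjusted p = 0.0580 to 0.732). IRF7 had 0.58 in DMSO (adjusted p = 0.0762) and was called higher by that test, with 2 RUVg factors (factors of unwanted variation, estimated from the spike-in RNA, of which 1 was used otherwise) and without a count filter, and also without DMSO-S30 replicate 2, dTAG-S0 replicate 1 or dTAG-S30 replicate 3 (adjusted p = 0.0307 to 0.0457). IFI27 had a log2 of -0.50 ± 0.19 SE in dTAG (adjusted p = 0.0622) and -0.36 in DMSO (adjusted p = 0.182). In dTAG it was called lower with 2 RUVg factors, by the likelihood ratio test and without a count filter. The filter of 50 counts and the fit of only the 2 groups compared also called it. So did the fits without DMSO-S30 replicate 1 or dTAG-S30 replicate 3. In DMSO it was called lower with the filter of 50 counts and without DMSO-S30 replicate 3. Counting each gene by its libraries alone, 5 of 38 had all DMSO-S30 libraries above all DMSO-S0 libraries and 4 had them all below, beside 13.8% and 30.6% of all genes. In dTAG-treated cells 3 had them all above and 6 all below, beside 12.6% and 24.9%.

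**Figure D3:**
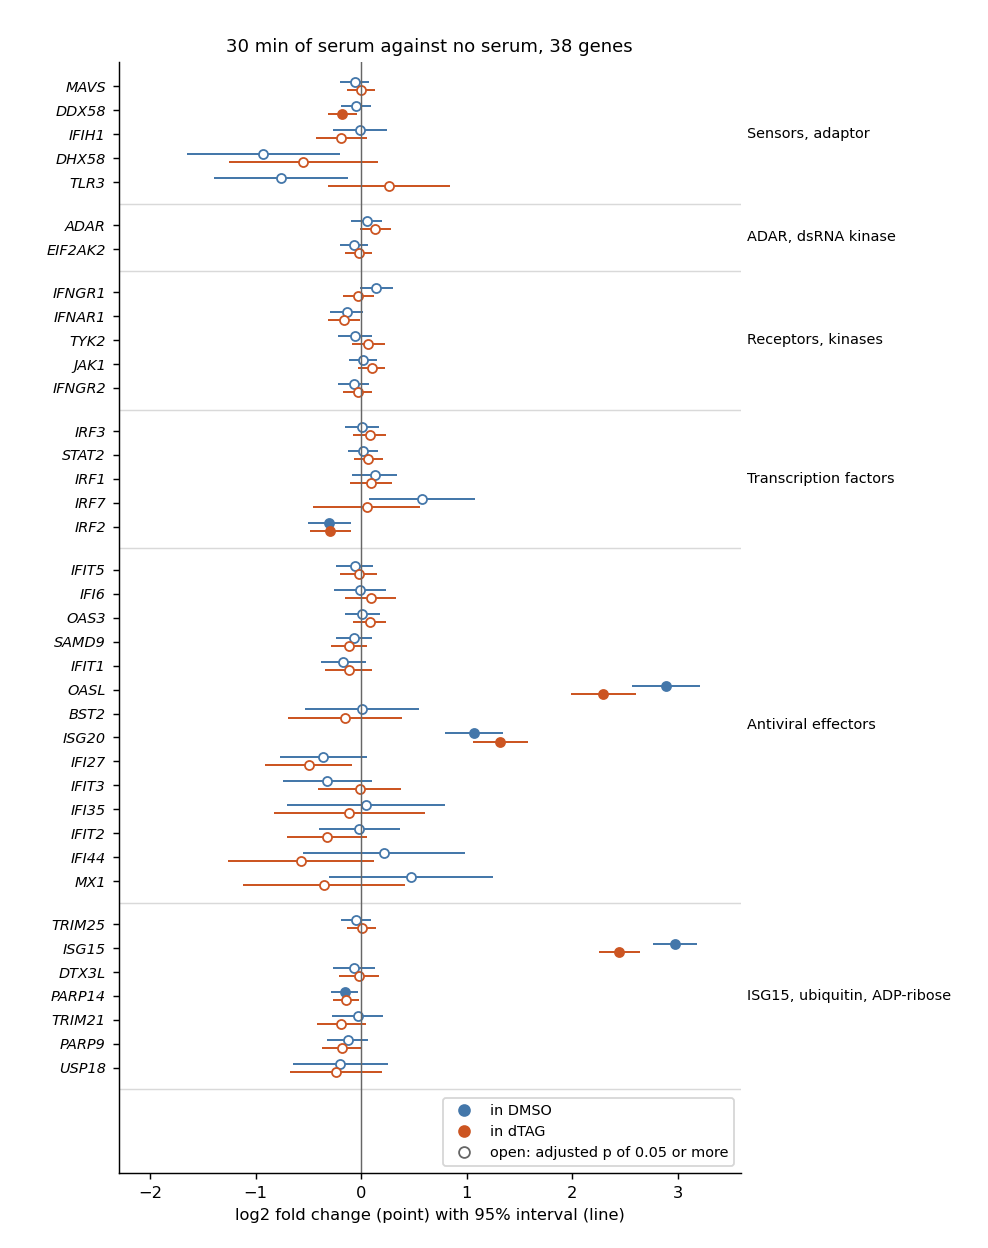
Log2 fold change with 30 min of serum for the 38 tested genes, by role, in DMSO (blue) and dTAG (orange), with 95% intervals as lines. Filled points passed an adjusted p of 0.05, and ISG15, OASL and ISG20 lie at 1.07 to 2.97 while the other points lie between -0.93 and 0.58.

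Whether the serum response differed between the treatments was tested as an interaction, the log2 effect of serum in dTAG minus that in DMSO. By edgeR 0 of 38 genes passed (5 of all 13093 genes did, 0.0382%), and DESeq2 also called 0. By edgeR 405 of all genes had an unadjusted p under 0.05, and 3 of the 38 did. These 3 were ISG15 at -0.53 ± 0.14 SE (95% interval -0.81 to -0.25, adjusted p = 0.405), OASL at -0.59 ± 0.23 SE (95% interval -1.06 to -0.12, adjusted p = 0.9998) and TLR3 at 1.02 ± 0.42 SE (95% interval 0.16 to 1.88, adjusted p = 0.9998). TLR3 was at 0.848, 2.29 and 1.23 CPM in DMSO-S0, so that DMSO-S0 replicate 2 lay apart from the others. For ISG15 the dTAG-S0 libraries were all above the DMSO-S0 libraries, with a log2 difference of 0.31 (adjusted p = 0.196), and the dTAG-S30 libraries overlapped with DMSO-S30, at -0.22 (adjusted p = 0.258). ISG15 passed the interaction test when genes were tested without a count filter (-0.48, adjusted p = 0.0108). ISG20 gave 0.25 (95% interval -0.13 to 0.63), in the other direction.

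Treatment with dTAG changed 4 of the 38 genes when averaged over both serum states, by modest amounts. Called lower were IFIT1 and SAMD9 (5.26% of 38, against 2.26% of all genes) and called higher were IFIH1 and IRF2 (5.26%, against 2.22% of all genes). Without serum 2 genes were called, IFIT1 and SAMD9, both lower (0.435% of all genes were called lower and 0.848% higher). With serum the same genes were called lower (0.626% of all genes were lower and 0.588% higher). In both states the quasi-likelihood test of edgeR and DESeq2 called 0 of 38 genes higher. At an unadjusted p under 0.05 by edgeR, 6 were higher without serum and 3 with serum. Counting both directions, 8 of 38 genes were under it in each state, beside 1509 of all 13093 genes without serum and 1367 with serum. Without serum the likelihood ratio test called IFIH1 higher, and the fit without a count filter called IFIH1 and ISG15 higher. The median log2 difference was 0.00 without serum and 0.01 with serum, beside -0.01 and 0.00 for all genes.

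IFIT1 encodes a protein that binds viral RNA lacking the host cap methylation and blocks its translation. Its level was 16.8, 16.7 and 15.1 CPM in DMSO-S0 and 9.64, 10.997 and 10.9 CPM in dTAG-S0. With serum it was 14.2, 13.4 and 14.6 CPM in DMSO-S30 and 9.11, 9.57 and 10.8 CPM in dTAG-S30. All 6 dTAG libraries were below all 6 DMSO libraries. The level with dTAG was 0.659 of that with DMSO without serum (log2 -0.60 ± 0.10 SE, adjusted p = 0.000887) and 0.683 of it with serum (log2 -0.55 ± 0.10 SE, adjusted p = 0.00345). Averaged over serum, the log2 difference was -0.58 (95% interval -0.72 to -0.43, adjusted p = 4.17e-06), and all 3 calls held in every alternative fit and in all 12 fits that left out 1 library.

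IFIT1, counted on chromosome 10 from 89392546 to 89406486 on the plus strand, lies wholly inside the model of LIPA, a lysosomal lipase gene on the other strand, as do IFIT2 and IFIT3. Whether reads were assigned by strand is not stated. In LIPA the dTAG libraries were all above the DMSO libraries in each serum state, opposite to IFIT1, with log2 differences of 0.11 without serum and 0.17 with serum (adjusted p = 0.543 and 0.314). IFIT2 and IFIT3, which encode proteins that assemble with IFIT1, were at 2.91 to 4.77 and 2.20 to 4.02 CPM over the 12 libraries. Their log2 differences averaged over serum were -0.12 (95% interval -0.38 to 0.13) and 0.22 (95% interval -0.06 to 0.49), neither called. IFIT5, which lies outside LIPA, was at 42.8 to 56.4 CPM and differed by -0.03 (95% interval -0.15 to 0.08).

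SAMD9, an antiviral factor that restricts poxviruses, was at 27.7, 28.3 and 24.6 CPM in DMSO-S0 and 22.2, 21.2 and 21.5 CPM in dTAG-S0. With serum it was at 25.5, 26.1 and 24.8 CPM in DMSO-S30 and 20.3, 19.8 and 20.2 CPM in dTAG-S30. Again all dTAG libraries were below all DMSO libraries. The log2 difference was -0.31 ± 0.08 SE without serum (adjusted p = 0.0486), -0.35 ± 0.08 SE with serum (adjusted p = 0.0211) and -0.33 (95% interval -0.44 to -0.22, adjusted p = 0.000336) averaged over serum. The averaged call held in all 9 alternative fits and all 12 fits without 1 library. The call without serum was lost under TMM scaling, with ERCC library sizes, with the replicate number as a block and with only the 2 groups compared (adjusted p = 0.0550 to 0.287), and without any 1 of 9 libraries (DMSO-S0 replicates 1 and 2, DMSO-S30 replicates 2 and 3, dTAG-S0 replicates 1, 2 and 3, dTAG-S30 replicates 1 and 2, adjusted p = 0.0512 to 0.141). That with serum was lost with ERCC library sizes (adjusted p = 0.133) and without DMSO-S30 replicate 2, DMSO-S30 replicate 3 or dTAG-S30 replicate 2 (adjusted p = 0.0552 to 0.138).

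IFIH1, the sensor MDA5 for long double-stranded RNA, was at 9.96, 9.45 and 10.9 CPM in DMSO-S0 and 13.2, 13.6 and 12.3 CPM in dTAG-S0. With serum it was at 9.67, 9.47 and 10.7 CPM in DMSO-S30 and 9.74, 13.0 and 11.97 CPM in dTAG-S30. The groups were separate without serum and overlapped with it, since dTAG-S30 replicate 1 was at the level of the DMSO libraries. The log2 difference was 0.38 ± 0.11 SE without serum (adjusted p = 0.112), 0.20 ± 0.12 SE with serum (adjusted p = 0.581) and 0.29 (95% interval 0.13 to 0.46, adjusted p = 0.0321) averaged over serum. The averaged call was lost with ERCC library sizes (adjusted p = 0.0704) and without DMSO-S0 replicate 1, DMSO-S0 replicate 2, DMSO-S30 replicate 2, dTAG-S0 replicate 1 or dTAG-S30 replicate 2 (adjusted p = 0.0731 to 0.105). The comparison without serum was called as well by the likelihood ratio test, without a count filter and without DMSO-S0 replicate 3 (adjusted p = 0.0401 to 0.0425). GCA, which starts 136 bases away on the other strand, differed by -0.17 averaged over serum (adjusted p = 0.309).

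IRF2, which fell with serum, was higher with dTAG averaged over serum, at a log2 of 0.22 (95% interval 0.09 to 0.35, adjusted p = 0.0398). Its dTAG-S0 libraries were all above the DMSO-S0 libraries and its dTAG-S30 libraries overlapped with DMSO-S30, with log2 differences of 0.22 and 0.23 (adjusted p = 0.314 and 0.345). The averaged call was lost with ERCC library sizes (adjusted p = 0.149) and without any 1 of DMSO-S0 replicates 1 and 2, DMSO-S30 replicates 1 and 2, dTAG-S0 replicates 1 and 3 and dTAG-S30 replicate 1 (adjusted p = 0.0507 to 0.123). IRF1, an activator of interferon-stimulated genes, was at 14.5, 15.5 and 14.4 CPM in DMSO-S0 and 18.0, 16.3 and 17.7 CPM in dTAG-S0. With serum it was at 16.1, 15.0 and 17.2 CPM in DMSO-S30 and 16.6, 19.6 and 19.4 CPM in dTAG-S30. Its averaged log2 difference of 0.21 did not pass (95% interval 0.08 to 0.35, adjusted p = 0.0624). It was called higher by DESeq2, by the likelihood ratio test, without an RUVg factor, without a count filter and with a filter of 50 counts, and also without dTAG-S0 replicate 2 or dTAG-S30 replicate 1 (adjusted p down to 0.0147). IRF1 lies wholly inside another gene model on the other strand.

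The promoters of IFIT1, SAMD9 and IFIH1 are shown because these genes were called with dTAG and are themselves interferon-stimulated. Each run is the 250 bases before the RefSeq start in the direction of transcription (GRCh38.p14), chr10:89392373-89392622 on the plus strand for IFIT1, chr7:93117980-93118229 on the minus strand for SAMD9 and chr2:162318685-162318934 on the minus strand for IFIH1. Capitals mark ISRE matches.
IFIT1: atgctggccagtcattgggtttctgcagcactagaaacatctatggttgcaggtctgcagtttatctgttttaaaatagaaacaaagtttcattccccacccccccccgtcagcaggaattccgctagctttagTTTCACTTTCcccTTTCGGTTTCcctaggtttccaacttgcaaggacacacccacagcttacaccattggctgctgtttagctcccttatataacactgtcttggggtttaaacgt
SAMD9: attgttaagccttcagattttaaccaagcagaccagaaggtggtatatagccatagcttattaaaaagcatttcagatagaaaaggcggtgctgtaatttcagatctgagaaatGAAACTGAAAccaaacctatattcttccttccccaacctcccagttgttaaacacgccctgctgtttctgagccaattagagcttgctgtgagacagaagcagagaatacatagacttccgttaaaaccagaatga
IFIH1: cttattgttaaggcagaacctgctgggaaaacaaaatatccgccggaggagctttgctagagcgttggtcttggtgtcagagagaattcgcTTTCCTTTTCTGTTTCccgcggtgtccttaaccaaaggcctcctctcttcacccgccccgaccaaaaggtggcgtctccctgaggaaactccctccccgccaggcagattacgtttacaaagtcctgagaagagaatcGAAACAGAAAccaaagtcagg
IFIT1 holds 2 matches, which begin 116 and 103 bases before the start, SAMD9 holds 1 at 136 bases and IFIH1 holds 3 at 159, 153 and 21 bases. All 3 genes thus carry the element, and with dTAG IFIT1 and SAMD9 were lower while IFIH1 was higher.

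Over the RefSeq windows from 250 bases before to 50 after the start, 34 of the 44 genes had an entry, with 46 windows in all. An ISRE match was present in 24 of the 46 windows (52.2%), in 20 genes, beside 3.57% of 35116 windows of all genes. The GAS site bound by STAT dimers (TTCNNNGAA) was in 21.7% of the 46 windows against 7.66% of all, the AP-1 site in 10.9% against 7.71%, the CArG box in 2.2% against 1.29% and the CRE (TGACGTCA) in 0 of them against 1.85%. Of the 20 genes with an ISRE match 19 were tested. Their median log2 difference with dTAG averaged over serum was 0.01, from -0.58 for IFIT1 to 0.33 for TLR3, and 1 was called higher and 2 lower. With serum in DMSO their median was -0.06 and 2 were called higher and 1 lower. The 12 tested genes whose window had no ISRE match had medians of 0.02 with dTAG and -0.02 with serum in DMSO. The genes that carry the element had values on both sides of 0 in both comparisons.

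Averaged over serum, the 95% interval of the dTAG effect lay within a 1.5-fold change for 33 of 38 genes. The 5 others were IFIT1 and the sparsely counted IFI44, MX1, IRF7 and TLR3. The interval lay within 1.5-fold for 30 of 38 genes without serum and for 26 with serum and reached beyond it for the other 8 and 12. With serum TLR3 had a log2 difference of 0.84 that did not pass (adjusted p = 0.257). The members that had the highest level per length in their role, or the smallest p with dTAG, are given in every library. MAVS was at 302, 295 and 303 CPM in DMSO-S0, 296, 277 and 286 in DMSO-S30, 302, 280.3 and 307 in dTAG-S0 and 276, 304 and 309 in dTAG-S30. Its averaged log2 difference was 0.02 (95% interval -0.07 to 0.10, adjusted p = 0.897), and dTAG and DMSO libraries overlapped in both serum states.

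ADAR was at 371, 352 and 364 CPM in DMSO-S0, 401, 358 and 362 in DMSO-S30, 353, 335 and 377 in dTAG-S0 and 358, 419 and 396 in dTAG-S30, with an averaged log2 difference of 0.02 (95% interval -0.08 to 0.11, adjusted p = 0.894). EIF2AK2, the kinase PKR that halts translation on binding double-stranded RNA, was at 160.0, 160.0 and 170.4 CPM in DMSO-S0, 158, 152 and 158 in DMSO-S30, 157, 163 and 172 in dTAG-S0 and 152, 169 and 164 in dTAG-S30, with a difference of 0.03 (95% interval -0.06 to 0.11, adjusted p = 0.774). For both genes dTAG and DMSO libraries overlapped in each serum state.

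The interferon gamma receptor chain IFNGR1 was at 39.5, 38.3 and 33.8 CPM in DMSO-S0, 39.96, 41.0 and 40.9 in DMSO-S30, 42.9, 40.8 and 41.0 in dTAG-S0 and 42.1, 41.9 and 39.3 in dTAG-S30. Its libraries were separate without serum, those with dTAG being higher, and overlapped with serum. The averaged log2 difference was 0.09 (95% interval -0.01 to 0.19, adjusted p = 0.362). IRF3 was at 38.1, 36.0 and 33.7 CPM in DMSO-S0, 35.0, 36.3 and 35.5 in DMSO-S30, 37.3, 33.2 and 35.7 in dTAG-S0 and 38.6, 35.6 and 39.1 in dTAG-S30, with a difference of 0.03 (95% interval -0.07 to 0.13, adjusted p = 0.821) and overlapping libraries.

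IFIT5 was at 48.9, 56.4 and 42.8 CPM in DMSO-S0, 47.8, 47.6 and 46.4 in DMSO-S30, 47.1, 50.4 and 45.4 in dTAG-S0 and 45.9, 50.04 and 44.6 in dTAG-S30, and its libraries overlapped between dTAG and DMSO in each serum state. TRIM25 was at 173, 162 and 175 CPM in DMSO-S0, 173, 162 and 155 in DMSO-S30, 178, 168 and 188 in dTAG-S0 and 166, 191 and 182 in dTAG-S30. Its averaged log2 difference of 0.10 (95% interval 0.01 to 0.19, adjusted p = 0.229) did not pass, and its libraries overlapped in each serum state.

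OASL with serum was at 23.9 to 29.6 CPM in DMSO and 16.9 to 24.2 CPM in dTAG, a log2 difference of -0.43 ± 0.12 SE that did not pass (adjusted p = 0.0977). It was called lower in 6 of the 10 alternatives: DESeq2 (log2 -0.43, adjusted p = 0.0334), the likelihood ratio test, no count filter, a filter of 50 counts, the replicate block and only the 2 groups compared (adjusted p down to 0.000272). So it was in the fits without any 1 of DMSO-S0 replicates 1, 2 and 3, DMSO-S30 replicate 2, dTAG-S0 replicate 1 and dTAG-S30 replicate 3 (adjusted p = 0.00632 to 0.0474).

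By role, 0 of 5 receptors and kinases and 0 of ADAR and EIF2AK2 were called in any of the 6 comparisons, with 1 of these genes at an unadjusted p under 0.05 with serum in dTAG (IFNAR1, log2 -0.17) and 1 with dTAG without serum (IFNGR1). DESeq2 and TMM scaling called IFNGR1 higher with serum in DMSO. ADAR with serum in dTAG had a log2 of 0.13 (adjusted p = 0.148). It was called higher in that comparison in 6 of the 10 alternatives (adjusted p down to 0.00666) and in 4 of 12 fits without 1 library. JAK1 was called higher in it by DESeq2 and with a filter of 50 counts. IFNAR1 was called lower in it without an RUVg factor and with only the 2 groups compared. So it was without DMSO-S0 replicate 2 or 3, DMSO-S30 replicate 1 or dTAG-S30 replicate 2. Of the 14 antiviral effectors tested, 4 had a positive and 10 a negative value with dTAG averaged over serum, with a median of -0.12, and 2 were called. Without serum 8 of the 14 were positive and 6 negative with a median of 0.03, and with serum 3 were positive and 11 negative with a median of -0.20. Of the 5 sensors tested, all had a positive averaged value, with a median of 0.08, and 1 was called (IFIH1). The averaged values of DHX58 and MAVS were near 0, at 0.01 and 0.02 (adjusted p = 0.983 and 0.897). TLR3 and DDX58 did not pass either (adjusted p = 0.434 and 0.330). Without serum 2 of the 5 sensors were positive and 3 negative with a median of -0.01, and with serum all 5 were positive with a median of 0.20. Whether the signs of sensors or effectors differed from those of all genes was not tested. Counting by libraries alone, 7 of 38 genes without serum had all dTAG libraries above all DMSO libraries (8.5% of all genes) and 2 had them below (9.23%). These 7 were ISG15, OAS3, IRF1, IRF2, IFIH1, DDX58 and IFNGR1. With serum the counts were 1 (ISG20, 7.62% of all genes) and 2 (8.1%).

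**Figure D4:**
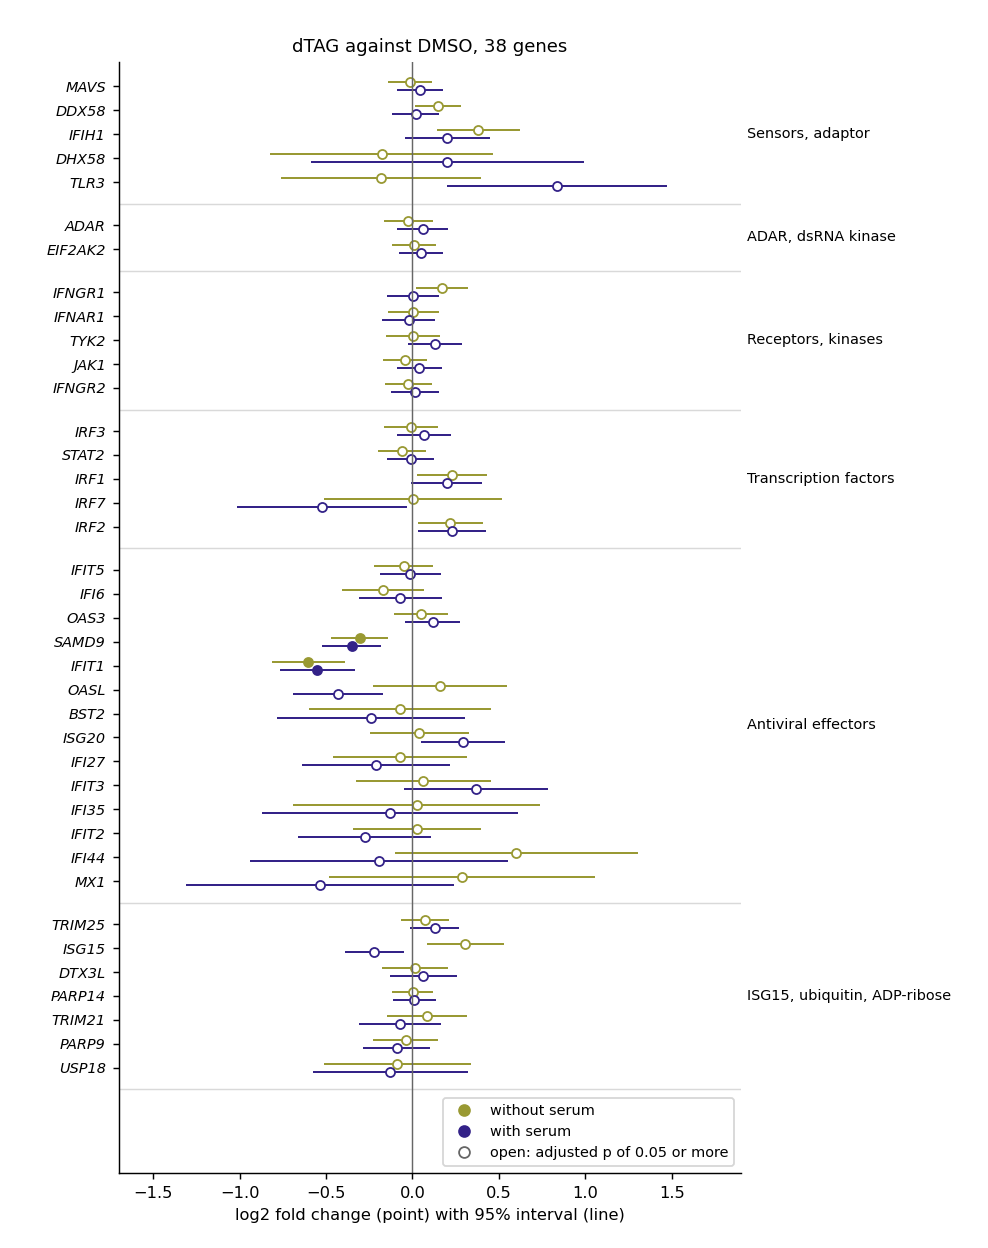
Log2 fold change of dTAG against DMSO for the 38 tested genes, by role, without serum (olive) and with serum (violet), with 95% intervals as lines. Filled points passed an adjusted p of 0.05, which IFIT1 and SAMD9 did in both comparisons and no other of the 38 genes did in either, and the widest intervals belong to genes with few counts such as MX1, IFI44, DHX58 and TLR3.

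Other genes of the pathway, from a list of 86 genes that are not among the 44, were tested where counts allowed (58 genes). With serum 7 were called higher (12.1%, against 9.15% of all genes) and 5 lower (8.62%, against 17.0%) in DMSO, and 7 higher (12.1%, against 9.04%) and 3 lower (5.17%, against 15.3%) in dTAG. These counts depended on the scaling, an alternative chosen after the data were seen: under TMM scaling 13 were higher and 1 lower in DMSO, and 8 higher and 1 lower in dTAG. Over all 10 alternatives 5 to 13 were higher and 1 to 6 lower in DMSO, and 6 to 12 higher and 1 to 7 lower in dTAG. Those named here were chosen after their values were seen. The higher ones included STAT3, which carries cytokine signals to the nucleus, at a log2 of 0.52 and 0.50 in DMSO and dTAG (adjusted p = 1.27e-07 and 2.12e-07), and SOCS3, a feedback inhibitor of the JAK kinases, at 0.74 and 0.42 (adjusted p = 1.62e-06 and 0.00187). HELZ2, an interferon-stimulated helicase, rose by 0.48 and 0.41 (adjusted p = 0.000577 and 0.00164). GBP2, an interferon-induced GTPase and 1 of the 7 in each treatment, was at 0.245 to 0.689 CPM in DMSO-S0, 1.67 to 2.06 in DMSO-S30, 0.329 to 0.390 in dTAG-S0 and 0.805 to 1.75 in dTAG-S30. It reached 10 counts in all libraries with serum and in 1 without, so it was tested only through the libraries where it was high. RSAD2, the antiviral enzyme viperin, was lower with serum in DMSO (log2 -1.26, adjusted p = 0.00930), at 0.742 to 1.47 CPM without and 0.344 to 0.580 CPM with serum.

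With dTAG averaged over serum 2 of these 58 genes were called, 1 higher and 1 lower (1.72% each, against 2.22% and 2.26% of all genes). HERC5, the main ligase that attaches ISG15 to other proteins, was lower (log2 -0.29, adjusted p = 0.00248), at 26.6 to 33.8 CPM in DMSO-S0 and 24.8 to 26.3 CPM in dTAG-S0, and at 25.4 to 28.1 CPM in DMSO-S30 and 20.6 to 22.0 CPM in dTAG-S30. Its dTAG libraries were below its DMSO libraries in each serum state. Without serum 0 of the 58 genes were called (0.848% of all genes were called higher and 0.435% lower). With serum HERC5 alone was called, lower (1.72%, against 0.626% of all genes, adjusted p = 0.0371). HELZ2 was higher averaged over serum by a log2 of 0.23 (adjusted p = 0.0423), at 15.6 to 16.5 CPM in DMSO-S0 and 17.2 to 21.4 CPM in dTAG-S0, and at 20.8 to 23.8 CPM in DMSO-S30 and 23.8 to 27.6 CPM in dTAG-S30. Its dTAG libraries were above its DMSO libraries in both serum states, narrowly so with serum. The call of HELZ2 was lost with ERCC library sizes and with 2 RUVg factors, where 0 of the 58 genes were called higher.

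Of the 44 genes, 6 were not tested. IFI44L had 0 to 5 counts per library, OAS1 had 0 to 8, OAS2 had 0 to 11 and CGAS had 2 to 13, and a change in them was not detectable at this depth. IRF9 and IFNAR2 had 0 counts in all 12 libraries. Both lie wholly inside another gene model of the table on the same strand, IFNAR2 in that of the readthrough gene IFNAR2-IL10RB. Of the 588 genes of the table in this position, 533 had 0 counts in every library (90.7%), against 1343 of 13358 genes that overlap no other gene (10.1%) and 103 of 581 genes covered wholly on the other strand only (17.7%). Whether reads of IRF9 and IFNAR2 were assigned to the overlapping models was not tested.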

How the data were processed

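RNA-Seq was done on 12 libraries in 4 groups of 3. Per the study's methods and the labels, the authors trimmed reads with Trim Galore 0.6.4 after FastQC 0.11.8, mapped them to hg38 with STAR and to the ERCC spike-in sequences, and deposited raw counts made with featureCounts (Subread 1.6.3) over whole protein-coding genes, introns included. They normalised with EDASeq and RUVSeq and tested with edgeR 3.40.1. Strand, multi-mapping and annotation release are not given in the sources used here. Counting introns includes unspliced RNA.

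Genes with 10 counts in at least 6 libraries were kept (13093 of 19901 genes, 69 of 92 ERCC transcripts). ERCC rows stayed out of gene library sizes and gene tests. Counts were scaled by upper quartile, 1 RUVg factor was estimated from the ERCC transcripts, and edgeR 4.0.16 (R 4.3.3) fitted its quasi-likelihood model to all 12 libraries with group and that factor. Tests were two-sided with Benjamini-Hochberg adjustment over all genes, and genes with an adjusted p under 0.05 count as called. In all 6 comparisons were made: serum in DMSO and in dTAG, dTAG without and with serum, dTAG averaged over serum, and the interaction. Serum in DMSO and dTAG without serum share the DMSO-S0 libraries, and the other comparisons share libraries likewise. CPM is relative to the upper-quartile scaled library size and is not corrected for the RUVg factor, while fold changes are. The scripts were tested on simulated counts.

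The genes and lists were chosen with earlier results of these data known. Every library's value is given for each gene called in any comparison, up to 6 per comparison by size of change, and for the member of each role with the highest level per length or the smallest p for dTAG averaged over serum. Promoter windows (RefSeq, GRCh38.p14, 250 bases before to 50 after the start) were matched by symbol and searched on both strands. DESeq2 1.42.0 and 9 other settings were alternatives, besides 12 fits each without 1 library. Intervals of fold changes come from the quasi-likelihood model, which includes variation between libraries. Floors for counts of 0 cover counting error only.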

Additional observations from a re-analysis of the deposited data

How the results depend on the processing

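None of the 38 genes that was called changed direction in any of the 10 alternatives or 12 fits without 1 library, while the median with serum changed sign in some. The number of the 38 genes called moved by over 1.5 times in these cases. With library sizes from the ERCC total, 3 genes were called with serum in DMSO, 3 with serum in dTAG, 1 with dTAG without serum, 1 with dTAG with serum and 2 with dTAG averaged over serum. The likelihood ratio test called 8 with serum in DMSO, a filter of 50 counts 8 and a fit of only the 2 groups compared 9 with serum in dTAG. For dTAG without serum the count was 1 under TMM scaling, 1 with only the 2 groups compared and 4 without a filter, and for the interaction it was 1 without a filter. The median log2 change with serum in DMSO became 0.0323 under TMM scaling, 0.0138 with ERCC library sizes and 0.0142 with DESeq2, and that in dTAG became 0.0366 under TMM scaling, 0.0276 with DESeq2 and 0.0264 with the filter of 50 counts. The cause was not tested. Leaving out 1 library gave 3 to 6 genes called with serum in DMSO, 3 to 9 with serum in dTAG, 1 to 3 with dTAG without serum, 1 to 3 with dTAG with serum, 2 to 5 with dTAG averaged over serum and 0 for the interaction. The medians then ran from -0.047 to -0.012, -0.073 to 0.0042, -0.017 to 0.024, -0.017 to 0.022, -0.0052 to 0.022 and -0.031 to 0.031 in that order.

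Over all genes the number called was 3420, 3184, 168, 159, 587 and 5 in the 6 comparisons, and 1766, 1646, 76, 66, 258 and 3 with ERCC library sizes. For dTAG without serum it was 258 with DESeq2, 283 by the likelihood ratio test, 275 without a filter and 412 with the filter of 50 counts. For dTAG with serum these were 290, 266, 406 and 391, and 267 with only the 2 groups compared. For dTAG averaged over serum the filter of 50 counts gave 1123. For the interaction it was 22 with DESeq2, 10 by the likelihood ratio test, 29 without a filter, 10 with the filter of 50 counts, 8 under TMM scaling and 9 with 2 RUVg factors. Leaving out 1 library gave 2621 to 4167, 2428 to 4108, 111 to 299, 95 to 258, 360 to 914 and 5 to 14, with the ends for dTAG set by dTAG-S0 replicate 3 and dTAG-S30 replicate 3 without serum, by DMSO-S30 replicate 2 and DMSO-S0 replicate 1 with serum and by DMSO-S30 replicate 2 and dTAG-S30 replicate 1 averaged over serum.

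The groups share replicate numbers, but same-numbered libraries did not deviate together (18 pairs, correlation -0.153 to 0.139, median 0.033), so the numbers were not taken as pairs. With the replicate number as a block (replicate block), 5, 5, 1, 3, 4 and 0 of the 38 genes were called. Genes with few counts limit what could be seen: 7 of the 38 had under 50 counts on average.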
